A study of Mus musculus with 67 samples.

Results

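Old mice kept on caloric restriction (CR) were compared with old mice fed ad libitum (AL) in the striatum, the forebrain nucleus that receives dopamine and helps to select movements. The comparison holds 18 of the 67 arrays of the series, chosen by the age and the diet in the labels. They are 8 CR mice of 673 to 743 days and 10 AL mice of 704 to 743 days, 1 array per mouse. Each array was a nylon filter carrying 8448 cDNA features, hybridized with radiolabeled cDNA made from total RNA, and 4209 genes could be named on it. The study reports on more genes than this filter carries features.

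All mice were C57BL/6, an inbred strain, and no transgene or drug is given for any group. AL mice had free access to feed. CR mice received regular feed up to 13 weeks of age, fortified feed at 90% for 1 week and at 75% for 1 week, and 60% from then on. The AL groups held 5 females (704 to 733 days) and 5 males (714 to 743 days), and the CR groups 5 females (703 to 743 days) and 3 males. All 3 CR males were 673 days old, younger than every old AL male, so that diet and age cannot be told apart in males, whereas the ages of the females overlapped. In the diet difference both sexes carry the same weight.

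Caloric restriction lowers energy intake without malnutrition and prolongs life in many laboratory mouse strains. In well-studied tissues it is known to lower insulin and IGF signaling, to raise autophagy and to shift fuel use toward fatty acids. Most striatal neurons are GABAergic projection neurons, in which dopamine acts through cAMP, protein kinase A and DARPP-32, the product of Ppp1r1b.

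The values are Z scores, which place each feature on its array in units of the SD of all features of that array. A difference of 1 Z is therefore 1 such SD and not a fold change. In bulk tissue a lower score from fewer cells of a type and a lower score from less RNA per cell cannot be told apart. Ppp1r1b scored 0.476 on average over the old arrays, above the mean of all features. Drd1, Drd2, Penk, Pde10a and Adora2a, further markers of striatal projection neurons, were not named on the filter. Nor were Gfap, Mbp, Aif1, Cldn5, Ttr and Slc17a7, which define other brain cell types, or Gad1, a gene of GABAergic neurons. Xist, transcribed from the inactive X chromosome of females, scored -0.80 to -0.51 in females and -1.11 to -0.40 in males. Uty, which lies on the Y chromosome, scored -1.16 to -0.90 in females and -1.44 to -0.91 in males, so that neither feature separated the sexes and the labels of sex were not checked by them.

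Several old arrays stood apart. Replicate 5 of the old AL males and replicate 5 of the old AL females were listed in the opposite order and were turned end to end, which raised their correlation with the median profile from 0.135 and 0.132 to 0.992 each. Old CR male replicate 3 and old AL male replicate 4 had a different profile, with a correlation of 0.946 each against 0.976 to 0.995 for the other old arrays. One such array lies in each diet arm, both in males. The deviations of the old arrays from the median profile also repeated at a distance of 22 features in the order listed, with autocorrelations of 0.294 to 0.598. Results are therefore given with and without the arrays of different profile, and with a correction for the layout of the filter.

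No feature passed the test of diet in old mice. Of 4257 features with a mean score above 0 over the adult arrays, 0 passed at an adjusted p of 0.05 in limma with Benjamini-Hochberg adjustment, which is 0%, and 5 had an unadjusted p under 0.05 (4 higher and 1 lower in CR), or 0.117%. An exact permutation of the diet labels within each sex gave 3 features with an unadjusted p under 0.05 (1 higher and 2 lower) and 0 after adjustment. Both counts are far below the share of 0.05 expected on average without any diet difference. The cause of this shortfall was not tested, and 0 passing does not show equal scores. The CR and the AL arrays overlapped in every tested feature, 0 of 4257 being free of overlap.

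The differences were small and their errors larger. Across tested features the SD of the differences was 0.0400 Z, and 97.8% of features lay within 0.1 Z of 0. The extremes were -0.176 Z and 0.129 Z. The 95% confidence interval of a difference reached 0.156 Z to either side at the median feature. At such a feature a smaller observed difference does not reach an unadjusted p of 0.05 in limma. Passing after adjustment over all tested features needs a larger difference still. After the layout correction, chosen after seeing the data, the interval reached 0.0801 Z to either side at the median feature. In that fit 0 features passed in limma and 49 had an unadjusted p under 0.05 (29 higher and 20 lower). Without the arrays of different profile 0 of 4274 features passed and 23 had an unadjusted p under 0.05 (16 higher and 7 lower).

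**Figure D1:**
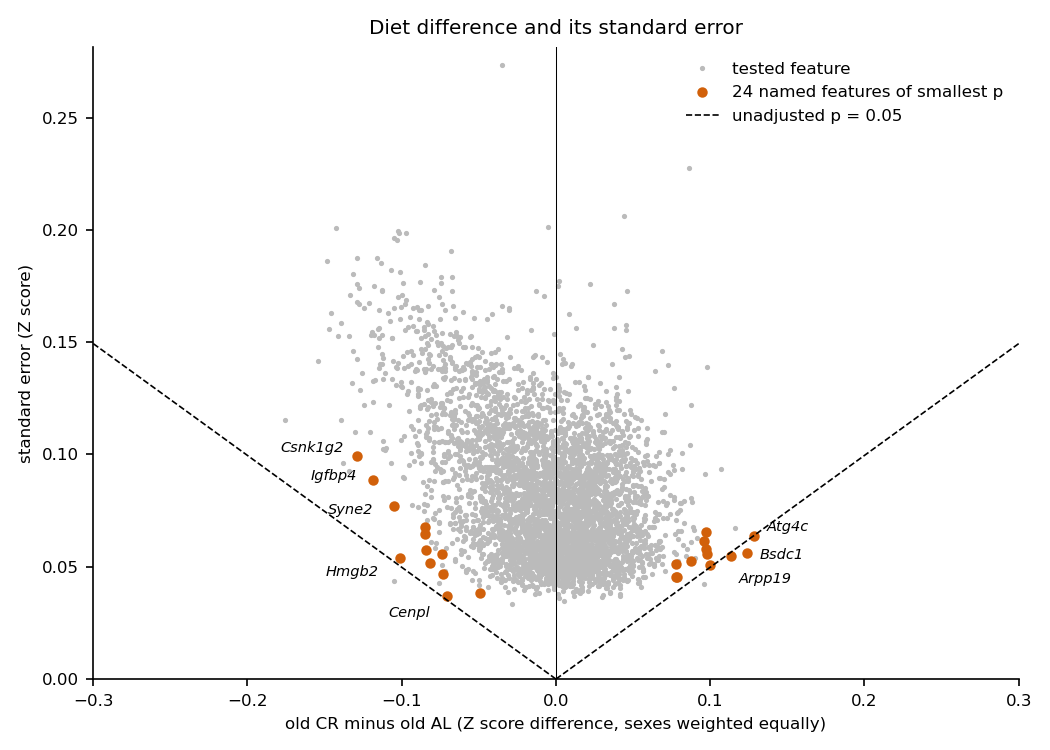
Difference between old CR and old AL mice (horizontal axis, Z score) and its standard error (vertical axis, Z score) for 4257 features, each a grey point, with the 24 named features of smallest p in orange. The dashed lines mark an unadjusted p of 0.05 in limma. Of all features 5 lie outside them, and 97.8% lie within 0.1 Z of 0.

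Among features with a single gene symbol, the 12 higher and the 12 lower ones of smallest p are named here, none of which passed. Their adjusted p in limma was 1 each, and their exact permutation p ranged from 0.0718 to 0.306. They are a description of where the scores differed most in relation to their error, and 3 of the 24 had an unadjusted limma p under 0.05.

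Arpp19 encodes a cAMP-regulated phosphoprotein that, once phosphorylated by the kinase MASTL, inhibits protein phosphatase 2A. The 8 CR mice scored 0.02 to 0.38 (median 0.19) and the 10 AL mice -0.31 to 0.24 (median 0.125). The groups overlapped, with 6 of 8 CR mice above the AL median and the lowest value in a turned AL array. The difference was 0.113 ± 0.055 Z (SE, exact permutation p = 0.184), and 0.0693 Z without the turned arrays. A further feature of Arpp19, below the filter on the mean score, differed by 0.0923 Z (exact permutation p = 0.333).

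Atg4c encodes a protease that processes ATG8 proteins during autophagy. It scored 0.29 to 0.55 (median 0.425) in CR and -0.15 to 0.52 (median 0.375) in AL mice. Both values below 0 came from the turned AL arrays (-0.15 and -0.08), and the other 8 AL mice lay at 0.24 to 0.52. The difference of 0.129 ± 0.064 Z (SE, exact permutation p = 0.216) became 0.0244 Z (exact permutation p = 0.618) when the turned arrays were left out.

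Bsdc1, which encodes a BSD domain protein, scored -0.13 to 0.61 (median 0.09) in CR and -0.08 to 0.15 (median 0.02) in AL mice. Its highest value belonged to old CR male replicate 1, and the next CR mouse lay at 0.19. The difference was 0.124 ± 0.056 Z (SE) with this array and 0.0215 Z without it. The higher side also held Tgfbi, which encodes an extracellular matrix protein induced by TGF-beta, at 0.53 to 0.92 (median 0.73) in CR and 0.49 to 0.87 (median 0.655) in AL mice. The 3 CR males (0.83, 0.77 and 0.92) lay among the highest values of Tgfbi, with old AL male replicate 4 at 0.87 between them. Its difference of 0.098 ± 0.056 Z (SE, exact permutation p = 0.0926) was 0.066 ± 0.025 Z after the layout correction (exact permutation p = 0.0181, adjusted p = 1 in limma).

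The other higher features differed by 0.0777 to 0.0997 Z. They were Usf1 (an E-box transcription factor), C2cd3 (a centriole protein), Tmx4 (a thioredoxin-related protein of the endoplasmic reticulum), Ppp1r21 (a regulatory subunit of protein phosphatase 1), Chek1 (the DNA damage checkpoint kinase 1), Exoc8 (a subunit of the exocyst), Kat2b (a histone acetyltransferase) and Fgfr1op2. Chek1 and Kat2b had their lowest values, -0.46 and 0.31, in the turned array old AL male replicate 5. Without it the difference of Chek1 was 0.0383 Z against 0.0873 Z with it, and that of Kat2b 0.0428 Z against 0.078 Z. Without old CR male replicate 3 the difference of Usf1 was 0.0505 Z, that of C2cd3 0.035 Z and that of Ppp1r21 0.044 Z. Without old CR male replicate 1 that of Tmx4 was 0.031 Z, that of Exoc8 0.049 Z and that of Fgfr1op2 0.042 Z. The array named for each of these 8 features is the one, of 18 left out in turn, whose removal lowered the difference most. With features picked by small p and only 3 CR males, some drop of this kind follows from the choice.

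**Figure D2:**
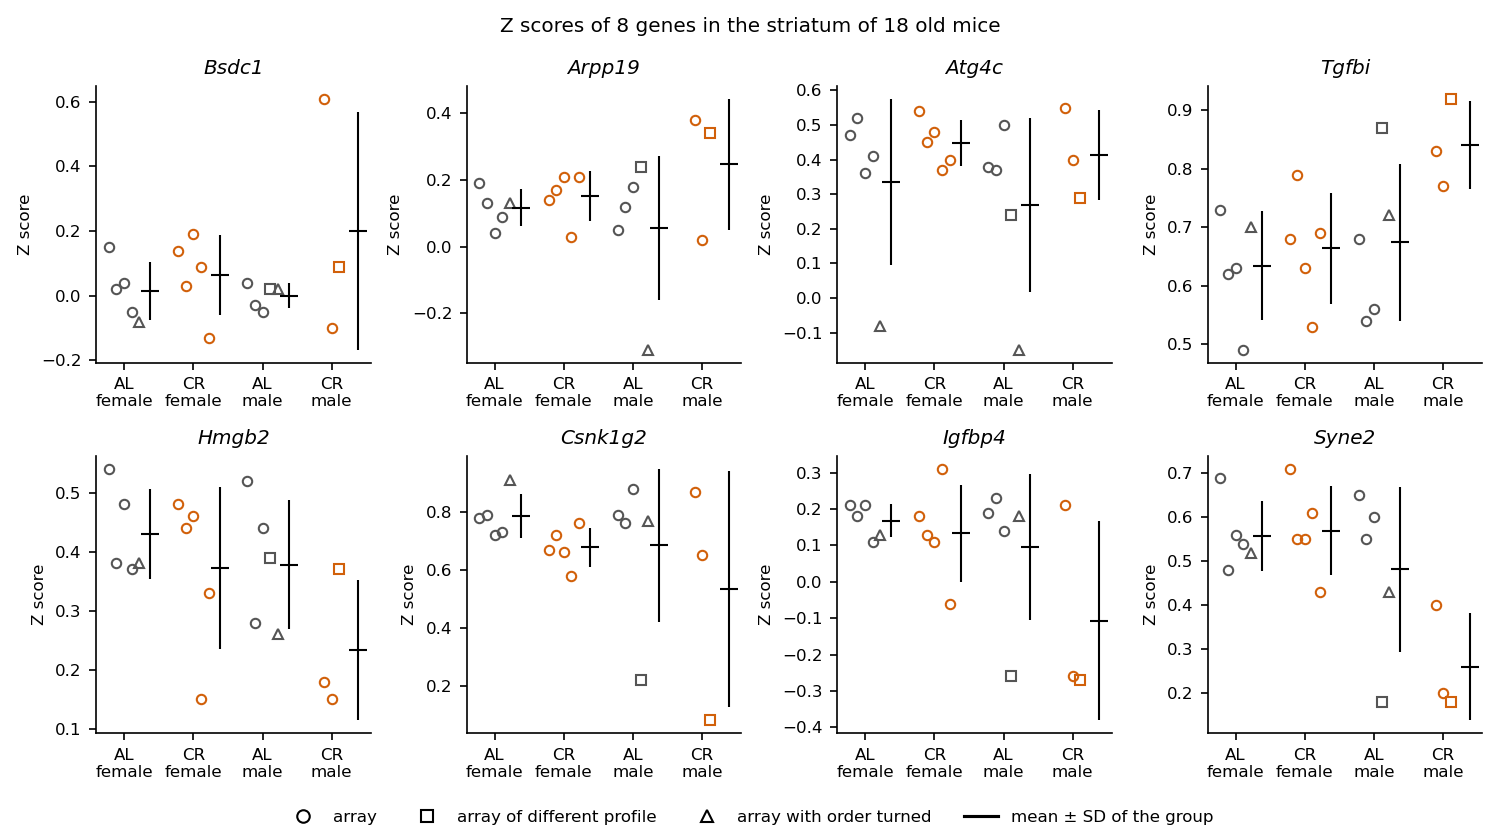
Z scores (vertical axes, each gene on its own scale) of 8 named genes in each of the 18 old mice by diet and sex, with the mean ± SD of each group as a bar beside the points. Squares are the arrays of different profile and triangles the arrays whose order was turned. In every panel the values of CR and AL mice overlap, and in Atg4c the 2 values below 0 are triangles.

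On the lower side, Hmgb2, which encodes a chromatin protein that bends DNA, scored 0.15 to 0.48 (median 0.35) in CR and 0.26 to 0.54 (median 0.385) in AL mice. The 3 lowest values belonged to CR mice, namely 2 males and female replicate 4, and the upper range was shared. The difference was -0.101 ± 0.054 Z (SE, exact permutation p = 0.081), and -0.0657 ± 0.021 Z after the layout correction (exact permutation p = 0.0435, adjusted p = 1 in limma).

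Csnk1g2, a gamma isoform of casein kinase 1, scored 0.08 to 0.87 (median 0.665) in CR and 0.22 to 0.91 (median 0.775) in AL mice. The lowest value of each diet came from the array of different profile, and 7 of 8 CR mice lay below the AL median. The difference was -0.129 ± 0.099 Z (SE, exact permutation p = 0.29), and -0.016 Z without old CR male replicate 3. After the layout correction it was -0.076 ± 0.026 Z (exact permutation p = 0.00489, adjusted p = 1 in limma). That exact permutation p is the smallest among all 4257 tested features after this correction.

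Igfbp4 encodes a secreted protein that binds insulin-like growth factors. It scored -0.27 to 0.31 (median 0.12) in CR and -0.26 to 0.23 (median 0.18) in AL mice. The values near the bottom of each range included both arrays of different profile (-0.27 and -0.26) and old CR male replicate 2 (-0.26). The difference was -0.118 ± 0.088 Z (SE, exact permutation p = 0.239), with -0.034 Z in females and -0.203 Z in males. Only with array weights did Igfbp4 pass among the fits run, with -0.242 Z when weights were fitted gene by gene (adjusted p = 0.00109 in limma).

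Syne2 encodes nesprin-2, which ties the nucleus to the cytoskeleton. The 3 CR males scored 0.40, 0.20 and 0.18, and the 5 AL males 0.65, 0.55, 0.60, 0.18 and 0.43. All CR males lay below 4 of the 5 AL males, the exception being the AL array of different profile. CR females scored 0.43 to 0.71 and AL females 0.48 to 0.69, with a difference of 0.012 Z against -0.222 Z in males. The difference over both sexes was -0.105 ± 0.077 Z (SE, exact permutation p = 0.179).

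Cenpl, a centromere protein gene, differed by -0.0707 Z and a feature of Sptbn1, which encodes a beta spectrin of the membrane skeleton, by -0.0733 Z. Averaged over the tested features of Sptbn1 the difference was -0.043 Z. Uqcrb, a subunit of respiratory complex III, differed by -0.0843 Z and 2 features of Rpl35, a protein of the large ribosomal subunit, by -0.0817 Z and -0.0493 Z. A further feature of Uqcrb, below the filter on the mean score, scored -0.83 to -0.62 in CR and -0.88 to -0.59 in AL mice. Avpr1a, the vasopressin receptor V1a, differed by -0.085 Z, Ago2, the argonaute nuclease of RNA interference, by -0.0847 Z and Wdr35, a gene of transport within cilia, by -0.0737 Z. The difference of Uqcrb became -0.0135 Z without old CR male replicate 3, those of the 2 Rpl35 features -0.005 Z and -0.011 Z, and that of Avpr1a -0.0275 Z. Cenpl differed by -0.0315 Z without old CR male replicate 1. Without old CR female replicate 4 Wdr35 differed by -0.0462 Z and Ago2 by -0.0534 Z.

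The leading features were not scattered over the filter. Of the 24, 12 (50.0%) lay within 22 positions of another leading feature in the order listed, each beside one that differed in the same direction, against 220 of 2347 other tested features with a single symbol (9.37%) that lay that near a leading one. Hmgb2, Cenpl and Syne2 stood within 4 positions, Ago2 and Wdr35 side by side, and Fgfr1op2, Exoc8 and Ppp1r21 within 8. All 24 kept their direction after the layout correction, 23 with a smaller difference. An exact permutation p under 0.05 was then found in 5 of the 24. Over all tested features this held for 48 of 4257, with 0 passing after adjustment. The 24 were picked by small p on the same arrays, so kept directions and small p follow in part from the choice. The exact permutation p after this correction was 0.179 for Arpp19, 0.204 for Atg4c, 0.247 for Bsdc1, 0.0513 for Igfbp4 and 0.155 for Syne2. The part of the layout in these differences was not tested.

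Diet was then compared within each sex. In old females, whose ages overlapped between diets, 0 features passed in limma, which is 0%, and 3 had an unadjusted p under 0.05, all lower in CR. In old males 0 passed (0%) and 19 had an unadjusted p under 0.05, of which 16 were higher. The test of whether the diet difference differed between the sexes gave 0 features (0%), with 14 at an unadjusted p under 0.05. Without the arrays of different profile these unadjusted counts were 8 in females, 82 in males and 88 for the difference between the sexes, with 0 passing in each.

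The male differences were the wider ones, with an SD across features of 0.075 Z against 0.0443 Z in females, where the males rest on 3 CR mice. Of the 24 leading features 20 differed more in males than in females, and 21 had the same sign in both sexes. Across the 4257 features the female and the male differences, which share no array, correlated at r = -0.177, a description in which layout and depth are shared within each set of arrays. In females the smallest p among named features was that of Arxes1 (-0.108 ± 0.059 Z, SE, adjusted p = 1 in limma). Avpr1a followed, with -0.15 Z in females and -0.02 Z in males. In males Usf1 led at 0.185 ± 0.077 Z (SE, adjusted p = 1 in limma).

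**Figure D3:**
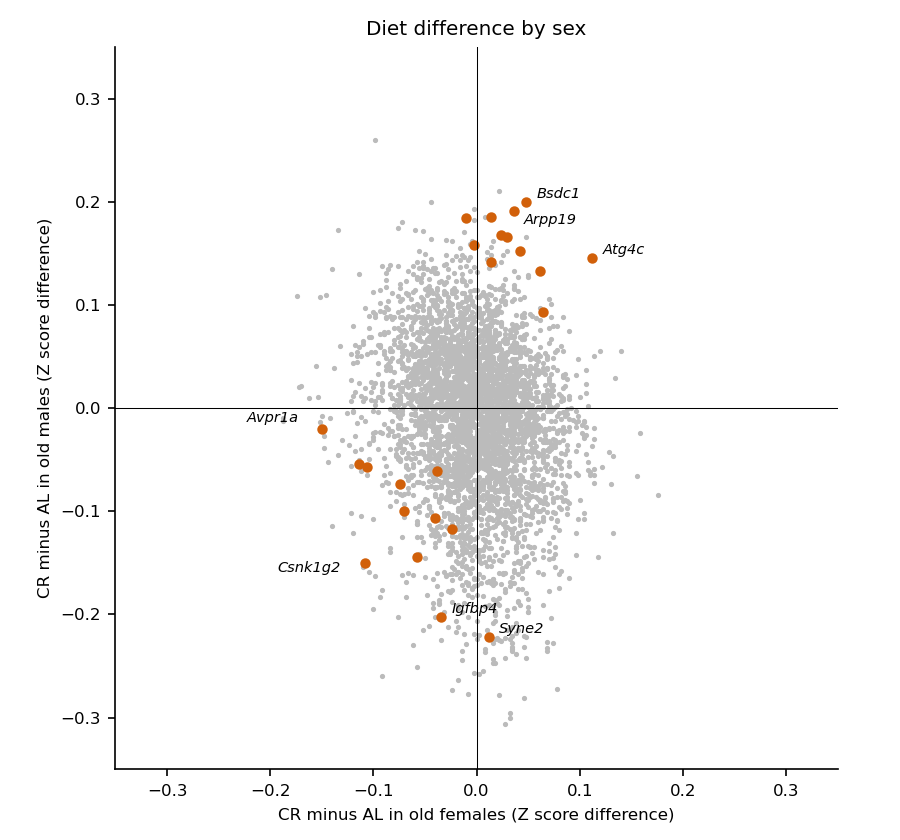
Difference between CR and AL in old females (horizontal axis, Z score, 5 against 5 mice) and in old males (vertical axis, Z score, 3 against 5 mice) for 4257 features, with the 24 leading features in orange. The grey cloud is taller than wide, with an SD of 0.075 Z in males and 0.0443 Z in females, and Syne2 lies near 0 in females and at -0.222 Z in males.

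Among the fits run without array weights, Syne2 was the only feature with an adjusted p under 0.05. With the layout correction and without the arrays of different profile (added once the data had been seen), its male difference was -0.251 ± 0.048 Z (SE, adjusted p = 0.0239 in limma). The test of the difference between the sexes gave 0.299 ± 0.060 Z (SE, adjusted p = 0.0455 in limma). In that fit the males are 2 CR mice of 673 days and 4 older AL mice.

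The last comparison asked whether the diet difference of old mice differed from that of young or middle-aged mice, which share no array with it. The young mice were 10 AL and 9 CR mice of 169 to 194 days, and the middle-aged mice 10 AL and 10 CR mice of 472 to 499 days. Of 4257 features 0 (0%) passed against young and 0 (0%) against middle age in limma, with 6 and 2 at an unadjusted p under 0.05. These unadjusted counts were 14 and 24 without the arrays of different profile. With 1 array left out in turn they ran from 2 to 109, the most without old CR male replicate 1, and from 0 to 8, the most without old CR male replicate 3. Igfbp4 was 0.102 Z higher in CR than in AL among young mice, 0.002 Z higher in middle age and 0.118 Z lower in old mice, and in the test of old against young mice the diet difference shifted by -0.22 ± 0.12 Z (SE). That shift did not pass in limma (unadjusted p = 0.0781). Atg4c differed by -0.029, -0.056 and 0.129 Z at these ages, and Ppp1r1b by 0.204, 0.121 and 0.0427 Z. In young mice the arrays of different profile were AL male replicate 3, AL female replicate 3 and CR female replicate 4, so the diets were not balanced for them. The SD of the young diet differences across features was 0.078 Z with the arrays of different profile and 0.050 Z without them. The single-gene values at these ages include those arrays.

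The old AL arrays also enter the difference between old and young AL mice, so both differences share these 10 arrays and are only set side by side. For old against young AL mice 0 of 4257 features passed in limma, with 12 at an unadjusted p under 0.05. The arrays of different profile are included there, namely young AL male replicate 3, young AL female replicate 3 and old AL male replicate 4. Age is thus not balanced for them. For Atg4c the old AL mice lay 0.144 Z below the young AL mice, and the old CR mice lay 0.129 Z above the old AL mice. Without the 2 turned AL arrays these differences of Atg4c were -0.0398 Z and 0.0244 Z. For Cst3, the gene of the protease inhibitor cystatin C, the age difference in AL mice was 0.277 Z and the diet difference in old mice -0.0567 ± 0.102 Z (SE, exact permutation p = 0.583). Old CR mice scored 0.39 to 1.04 for Cst3 (median 0.85) and old AL mice 0.43 to 1.06 (median 0.885), with the lowest value of each diet in the array of different profile. Without old CR male replicate 3 the diet difference of Cst3 was 0.0325 Z.

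Gene lists were described by the number of members higher in CR and by their median difference. Over all 2159 genes tested, 1143 (52.9%) were higher in CR and the median difference was 0.0030 Z, and after the layout correction 1123 of 2155 (52.1%) were higher. No list held a gene that passed. Of 28 lists with 5 or more tested genes, 16 had a median above 0, and all medians lay between -0.0272 Z and 0.0367 Z. In females 4 of these 28 lists had a median above 0 and in males 19, beside a median over all 2159 genes of -0.004 Z in females (977 higher) and 0.01 Z in males (1199 higher).

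Among neuronal genes, 4 of 6 striatal projection neuron genes were higher in CR, with a median of 0.0336 Z. They were Arpp19, Ppp1r1b (0.0427 Z), the GTPase gene Rasd2 (0.0403 Z) and the transcription factor gene Meis2 (0.027 Z). The 2 lower ones were Strn (-0.01 Z) and Actn2 (-0.0097 Z). Ppp1r1b scored 0.11 to 0.86 (median 0.565) in CR and 0.08 to 0.69 (median 0.44) in AL mice, with an exact permutation p = 0.717. Its difference changed sign without old CR male replicate 1, to -0.0765 Z. Of 10 genes of dopamine and cAMP signaling 5 were higher, with Prkaca, the catalytic subunit of protein kinase A, at 0.029 Z and Mastl at -0.0563 Z. Of 7 genes of calcium and CaM kinase signaling 5 were higher (median 0.0367 Z), among them Calm3 (0.0593 Z) and Camk1d (0.0433 Z). The 2 lower ones were Atp2b1 (-0.0223 Z) and Slc8a1 (-0.005 Z).

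Of the 14 synaptic vesicle genes 5 were higher, from Syt11 (-0.0737 Z) to Atp6v1a (0.038 Z), which encodes a subunit of the proton pump that fills vesicles. The median of this list, -0.009 Z, became 0.00765 Z after the layout correction, with 9 of 14 higher. Of 9 ion channel and receptor genes 6 were higher, from the potassium channel gene Kcnab3 (-0.05 Z) to Kcnj12 (0.0317 Z). The 4 immediate early genes on the filter all scored below the filter on the mean score, so neuronal activity was not read from them.

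Astrocyte genes were higher in CR in 1 of 6 cases, Sparcl1 at 0.0267 Z, and lower in 5, with Cst3, Ndrg2 (-0.0447 Z) and the gap junction gene Gja1 (-0.0397 Z) lowest. The summed level of these 6 genes, as a mean score, was 0.512 to 0.940 in CR and 0.560 to 0.890 in AL mice. Their median of -0.0272 Z became -0.0064 Z after the layout correction, with 3 of 6 higher. Of 5 microglial and immune genes 3 were higher (lowest Fcer1g, an Fc receptor subunit gene, at -0.089 Z, with a mean score over the list of 0.706 to 1.07 in CR and 0.822 to 1.05 in AL mice), of 4 endothelial and mural genes 3 (0.481 to 0.636 and 0.485 to 0.635) and of 5 blood genes 3 (0.330 to 0.542 and 0.405 to 0.510). After the layout correction 2 of the 5 microglial and immune genes were higher. Only 1 gene of oligodendrocytes, Cryab, and 1 of interneurons, Calb1, were tested, at -0.015 Z and -0.055 Z. The content of oligodendrocytes and interneurons was thus hardly measured.

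Pathways known to respond to energy intake had medians of similar size. Of 14 genes of insulin, IGF and mTOR signaling 7 were higher and 7 lower (median 0.0005 Z), with Igfbp4 lowest and the 14-3-3 gene Ywhab (0.0403 Z) highest. Igf1 differed by 0.0013 Z, the mTOR partner gene Rptor by -0.019 Z and Tsc1, an inhibitor of mTOR, by -0.0237 Z. Of 16 genes of energy sensing and mitochondrial biogenesis 9 were higher (median 0.013 Z), among them the deacetylase gene Sirt1 (0.0247 Z) and Tfb1m, a mitochondrial rRNA methyltransferase (0.074 Z). The AMPK subunit genes Prkaa1, Prkab1 and Prkab2 differed by -0.013, -0.022 and 0.0263 Z.

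Of 20 autophagy and lysosome genes 8 were higher (median -0.0067 Z), from Vps33a (-0.062 Z), whose product joins vesicles to lysosomes, to Atg4c. Lamp1, a lysosomal membrane protein gene, differed by 0.0447 Z and Pink1, the kinase that marks damaged mitochondria, by -0.049 Z. Of 15 antioxidant and glutathione genes 7 were higher, and Gsta4, a glutathione transferase that clears lipid peroxidation products, was lowest at -0.0873 Z (exact permutation p = 0.422). Of 3 genes of the glucocorticoid and fasting response 2 were higher, and Nr3c1, the glucocorticoid receptor gene, differed by -0.0177 Z.

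**Figure D4:**
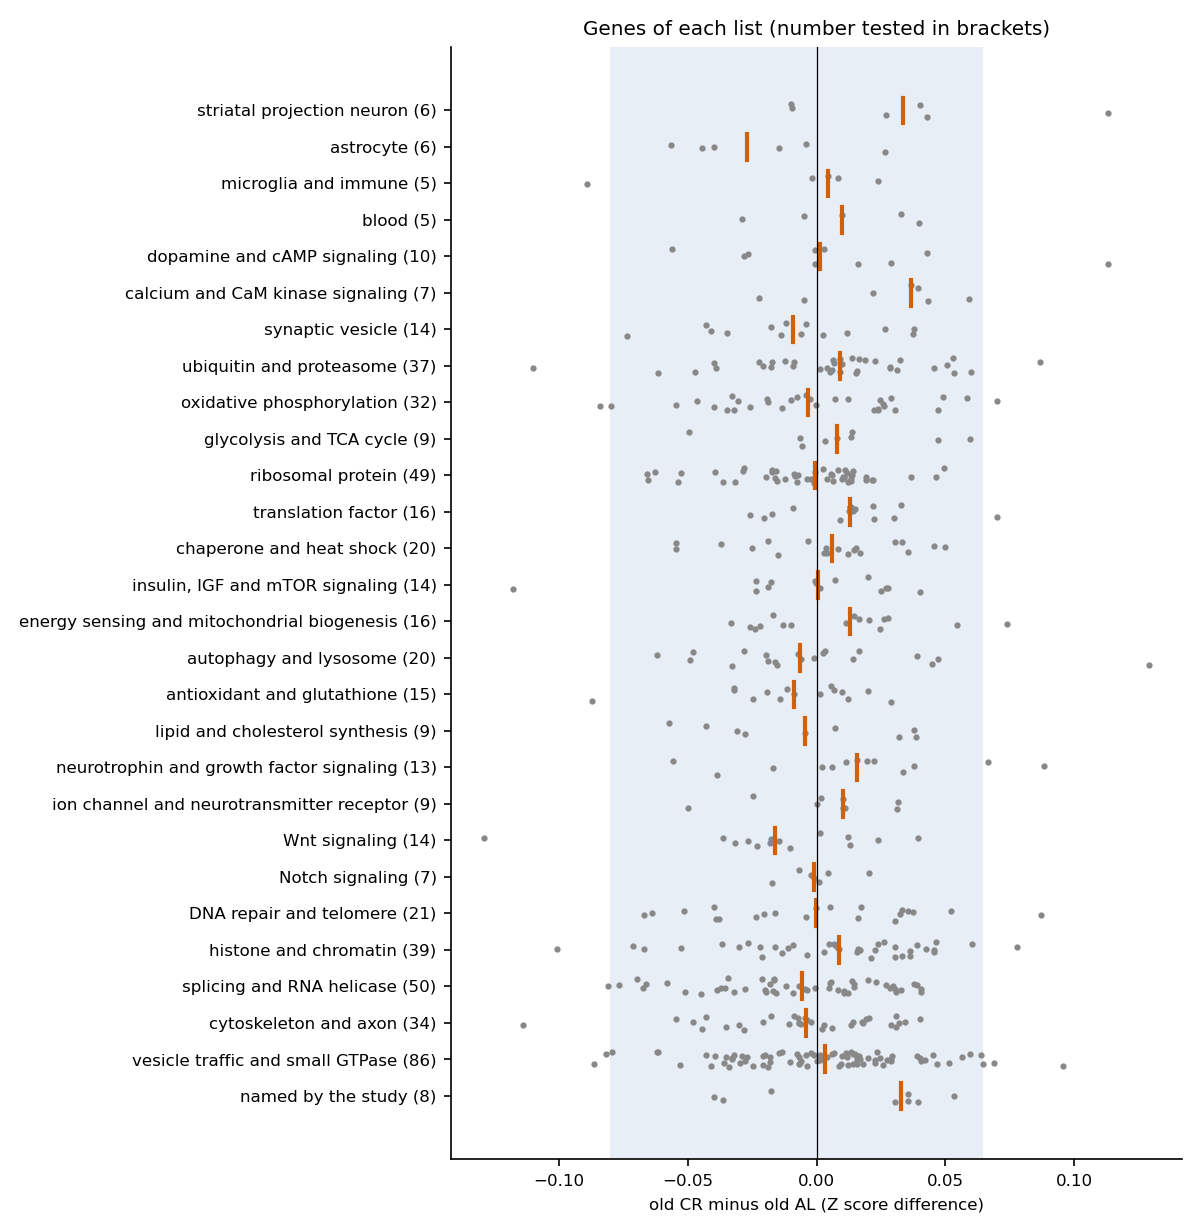
Difference between old CR and old AL mice (horizontal axis, Z score) for the tested genes (grey points) of the 28 lists with 5 or more of them, with the median of each list in orange and the central 95% of all 2159 tested genes shaded. All medians lie between -0.0272 Z and 0.0367 Z.

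Large lists lay close to 0. Of 32 genes of oxidative phosphorylation 14 were higher (median -0.0034 Z), of 49 ribosomal protein genes 24 (median -0.0008 Z) and of 50 splicing and RNA helicase genes 22 (median -0.0059 Z). Of 37 ubiquitin and proteasome genes 25 were higher (67.6% beside 52.9% of all genes, median 0.009 Z), with Psme1, a proteasome activator subunit, at 0.0867 Z and the ubiquitin ligase gene Wwp2 at -0.11 Z. After the layout correction 19 of these ubiquitin and proteasome genes were higher, with a median of 0.0007 Z. Of 16 translation factor genes 12 were higher (median 0.0131 Z), and 9 after the layout correction (median 0.0088 Z). Of 39 histone and chromatin genes 25 and of 86 genes of vesicle traffic 47 were higher. After the layout correction these counts were 21 of 38 and 43 of 85.

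Genes singled out in the study's text were tested in 8 cases, 5 of them higher in CR, and none passed. The study chose them on a wider set of samples that includes these, so that they are no independent evidence. Uchl1, a neuronal ubiquitin hydrolase gene, scored -0.12 to 0.64 (median 0.12) in CR and -0.12 to 0.34 (median 0.105) in AL mice. The highest value was old CR male replicate 1, and without it the difference of 0.0533 ± 0.086 Z (SE, exact permutation p = 0.634) was -0.05 Z. Wrn, the gene of the Werner syndrome helicase, scored 0.05 to 0.28 in CR and -0.10 to 0.20 in AL mice, a difference of 0.0353 ± 0.051 Z (SE, exact permutation p = 0.441), and 0.0131 Z without old AL male replicate 2, which held the lowest value.

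The mice of each group were also compared for how far they lay from one another. For each array the median absolute deviation from the mean of the other arrays of its group was 0.152 ± 0.108 Z (SD, n = 8) in CR and 0.103 ± 0.071 Z (SD, n = 10) in AL mice. The 2 highest values, 0.330 and 0.315, belonged to CR males, the third, 0.293, was old AL male replicate 4, and the other old arrays lay at 0.0525 to 0.145. With sexes weighted equally the difference was 0.0678 Z (exact permutation within sex, two-sided p = 0.106). It was 0.0238 Z after the layout correction (exact permutation p = 0.0414), a value without scaling for group size. Arrays of a group are measured against one another, so their values are not independent and these p-values are only a description. Leaving out both arrays of different profile gave 0.0768 Z, for which no p is given, since the 2 CR males left are measured only against each other and share 1 value. A group of 3 CR males is measured against the mean of only 2 others, and with a scaling for group size, made on the deposited scores of all old arrays, the difference was 0.0509 Z (exact permutation p = 0.154).

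**Figure D5:**
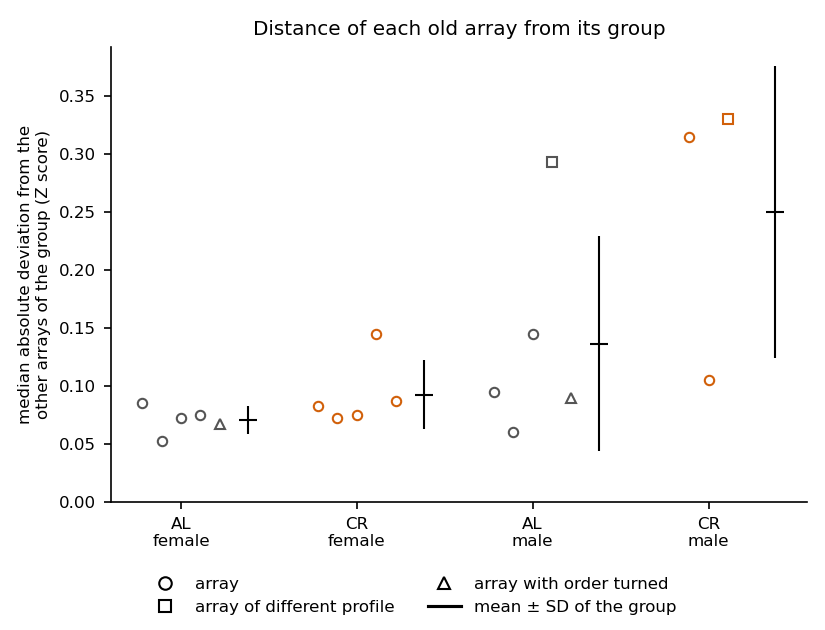
Median absolute deviation of each old array from the mean of the other arrays of its group over 4257 features (vertical axis, Z score), by diet and sex, with the mean ± SD of each group as a bar. CR males at 0.330 and 0.315 and 1 AL male at 0.293 lie above the other 15 arrays, which lie at 0.145 or less.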

How the data were processed

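Striatal RNA of 67 mice was hybridized to 1 filter each. Per the study's methods the authors read the filters with ArrayPro and transformed each array to Z scores. The deposited scores have a mean of 0 and an SD of 1 per array, and the log base and background treatment are not given in the sources used here, so that fold changes cannot be recovered. Symbols came from the platform annotation, updated by gene identifier for 4861 features. Of 8448 features 4875 carried 1 symbol, 224 several and 3349 none.

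Groups came from the labels (the description of 1 old AL male repeats that of another array). limma 3.58.1 in R 4.3.3 fitted 1 mean per group of age, diet and sex to 57 adult arrays, for features with a mean score above 0, with Benjamini-Hochberg adjustment at 0.05. Replicates are mice, and the number of arrays limits the precision. Exact permutations exchanged diet labels within sex (14112 arrangements, smallest possible p 7.09e-05). Features of a gene were averaged for the lists. The layout correction subtracts from each array its median deviation from the median profile over the same column, 3 rows and 1 block to either side, with the layout of 16 blocks of 24 rows and 22 columns inferred from the order listed. Arrays with a correlation under 0.96 with the median profile were called of different profile. Code was tested on simulated data.

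The members, lists and tests were chosen with earlier results of these data known. Named are features with 1 symbol, 12 in each direction by the smallest p, up to 2 at each end of each list, and genes fixed by name. Arxes1, Rasd2, Meis2, Prkaca, Gja1, Igf1, Rptor, Sirt1, Lamp1 and the AMPK genes were added after their values were seen. Alternatives were other scalings, filters, blocks, weights, and arrays left out in turn. The probe sequences of the clones were not used here.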

Additional observations from a re-analysis of the deposited data

Results flagged for a closer look

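Within groups of 5 arrays, a value was marked when its gap to the nearest other exceeded 0.710 of the group's range, which chance does in about 1 of 20 groups, and 7 of 90 groups examined were marked. Old AL male replicate 4, an array of different profile, held the low value of Igfbp4 (-0.26) and of Csnk1g2 (0.22). Old AL female replicate 5, a turned array, held the low value of Atg4c (-0.08). Old CR female replicate 4 held the low value of Exoc8 (0.16) and the highest distance from its group, 0.145. Old CR female replicate 3 held the high value of Sptbn1 (0.55) and old AL female replicate 1 that of Ago2 (1.39).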

How the results depend on the processing

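In limma the number of features passing stayed at 0 for the diet difference in old mice, in each sex, and for its difference between sexes and ages, under every alternative run except those named next, and with each array left out in turn (unadjusted p under 0.05 in 2 to 16 features for old mice, the most without old CR male replicate 3). Array weights gave 128 features in old mice, 1484 in males, 227 between the sexes, 1 against young and 2 against middle age. Weights fitted gene by gene gave 5, 68, 5 and 1 for the first 4. Igfbp4 passed under both weightings in old mice (adjusted p = 3.54e-06 and 0.00109) and Syne2 in males and between the sexes under the second. Other leading features passed in old mice under the first, namely Syne2, Tgfbi, Csnk1g2 and Usf1 (adjusted p = 0.00447, 0.0149, 0.0387 and 0.0468 in limma). The first weighting gave old CR male replicate 2 a weight of 145.1 beside 0.1225 to 3.902 for the others. The layout correction without the arrays of different profile gave 1 feature in males and 1 between the sexes, both Syne2. With the replicate block, by runs of title numbers, 0 passed and 10 in old mice had an unadjusted p under 0.05. The replicate numbers themselves pair no mice.

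The spread difference of 0.0678 Z was 0.0768 without the arrays of different profile, 0.0238 after the layout correction and -0.176 with the 2 columns as listed, and 0.0478 to 0.158 with 1 array left out. It was 0.158 without old CR male replicate 2, where the 2 CR males left share 1 value and no p is given. Without old AL male replicate 4 it was 0.0968 (exact permutation p = 0.00317). That setting keeps old CR male replicate 3, the CR array of different profile, and the values within a group are not independent.

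Of 1110 values of single features under alternatives 34 changed sign. With the 2 columns as listed, in reverse row order, 2 AL arrays carry the values of other features. The changed values in that setting were Arpp19 -0.0477, Usf1 -0.0323, C2cd3 -0.0297, Ppp1r21 -0.201, Kat2b -0.186, Hmgb2 0.188, Uqcrb 0.0277, Ago2 0.312 and Cst3 0.282. With the 2 kinds of array weights they were Bsdc1 -0.0141 and -0.00273, Ppp1r1b -0.138 and -0.125 and a feature of Rpl35 0.0038 and 0.0012. Ctsd was -0.0113 with a position correction and -0.0124 with the replicate block, and Hba-a1 -0.0135 with an age term. With 1 array left out Uchl1 ranged from -0.05 to 0.12, Ppp1r1b from -0.0765 to 0.111, Cst3 from -0.13 to 0.0325, Ctsd from -0.035 to 0.0625 and Hba-a1 from -0.00739 to 0.0787. The cause of the changes in settings other than the columns as listed was not tested.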
